A study of Mus musculus with 27 samples.

Results

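The colony-stimulating factor genes measured here were the ligand genes Csf1 and Il34 and the receptor genes Csf1r, Csf2ra, Csf2rb and Csf3r, taken by symbol, 6 of the 24293 gene symbols in the deposited RNA-seq tables. The study followed the conversion of mouse microglia into induced neuronal cells. Microglia were cultured from the cortex of wild-type C57BL/6 mice at postnatal day 1 and either kept as the labelled control or infected with a lentivirus carrying ND1 together with one carrying the doxycycline-responsive activator M2rtta. After infection the medium was exchanged for Neurobasal with B27 and the growth factors BDNF, GDNF and NT3, doxycycline was given once, and cells were collected on day 2 or day 7. The RNA libraries form 5 groups of 3, namely control microglia at day 2, control microglia at day 7, ND1 cells at day 2, ND1 cells at day 7, and neurons cultured from the cortex of C57BL/6 pups of the same age. The labels do not say whether the controls received the activator virus, doxycycline or the neuronal medium, nor whether the 3 libraries of a group came from separate cultures, so the p-values measure only the spread between these libraries. A bisulfite library from control microglia and another from converted cells, with no day given, were also used.

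Macrophage colony-stimulating factor, the product of Csf1, and interleukin-34, the product of Il34, are unrelated in sequence but bind the same tyrosine kinase receptor, the product of Csf1r. Signalling through this receptor keeps microglia alive, and in the brain Il34 is known mainly as a product of neurons while Csf1 is made by glia and by microglia themselves. Csf2ra encodes the ligand-binding chain of the receptor for granulocyte-macrophage colony-stimulating factor, Csf2rb encodes the beta chain that this receptor shares with those for interleukin-3 and interleukin-5, and Csf3r encodes the receptor for granulocyte colony-stimulating factor.

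All levels are FPKM, fragments per kilobase of transcript scaled by the mapped fragments of the library, so they can be compared between genes. A gene was called changed where limma's moderated test on log2(FPKM + 1) gave a Benjamini-Hochberg adjusted p under 0.05 over 13602 tested genes and a log2 fold change of at least 1 in size. Genes were tested where at least 3 libraries reached 1 FPKM. Of the 6 genes, 5 passed and Il34 did not. ND1 is read here as the neurogenic transcription factor NeuroD1, since Neurod1 stood at 3073 to 3454 FPKM in the ND1 libraries of day 2, at 32.5 to 36.7 FPKM in those of day 7 and at 1.04 to 2.16 FPKM in the controls. FPKM summed to between 429013 and 739846 per library, 10709 to 12092 genes reached 1 FPKM in a library, and the correlation of libraries within a group lay between 0.975 and 0.986 over genes. The summed level of 12 myeloid marker genes was 20320 to 20950 FPKM in the control libraries of day 2, 26090 to 27500 FPKM in those of day 7, 15100 to 16500 FPKM in ND1 cells at day 2, 1024 to 1436 FPKM in ND1 cells at day 7 and 36.2 to 40.8 FPKM in cortical neurons, with none of the 12 at 0. In bulk RNA, fewer cells of a type and less RNA per cell cannot be told apart, and this holds for every level below.

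**Figure D1:**
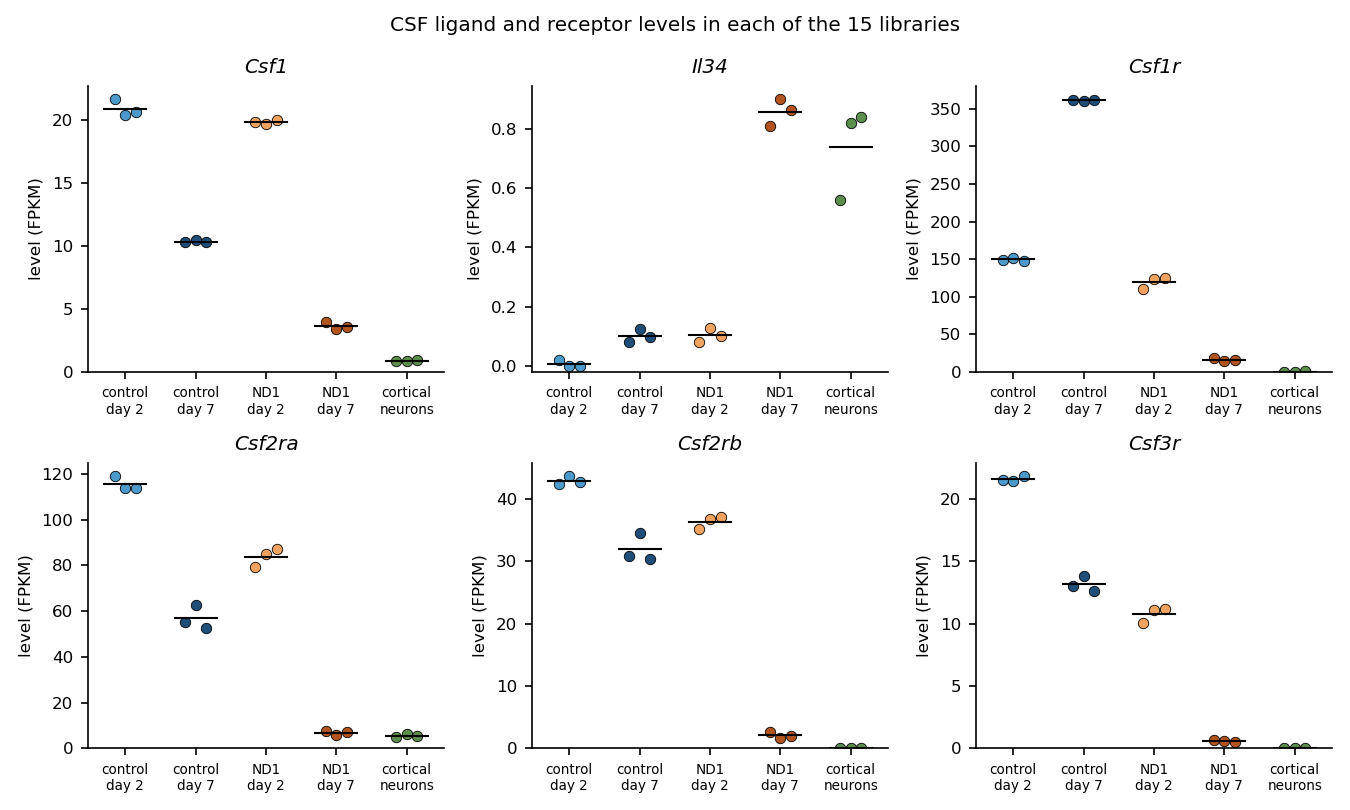
Level of each of the 6 genes in FPKM (linear axis, a separate scale for each gene) in the 15 libraries, with each point a library and each line the mean of 3 libraries. Csf1r is the highest of the 6 in control microglia at day 7, near 362 FPKM, and Il34 stays under 1 FPKM in every library.

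Csf1, the ligand gene with measurable expression, did not pass the call in ND1 cells at day 2 and was lower at day 7, with the smallest fall of the 5 tested genes. Its level was 21.7, 20.4 and 20.6 FPKM in control microglia at day 2 and 19.8, 19.7 and 20.0 FPKM in ND1 cells at day 2. It was 10.3, 10.5 and 10.3 FPKM in control microglia at day 7 and 3.92, 3.4 and 3.53 FPKM in ND1 cells at day 7. Cortical neurons had 0.862, 0.848 and 0.973 FPKM. The 5 groups therefore stood in the order control day 2, ND1 day 2, control day 7, ND1 day 7 and neurons, with no overlap between neighbours, although the first and second differed by only 1.05-fold in their means.

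At day 2 the Csf1 difference between ND1 and control cells was a log2 fold change of -0.07 (SE 0.045, limma adjusted p 0.192), and its sign turned to 0.10 when each library was rescaled to a sum of 1000000. At day 7 the log2 fold change was -1.30 (SE 0.045, limma adjusted p 1.49e-12), a 2.86-fold lower mean. This call depended on the scale of the values. Rescaling gave -0.79, below the threshold of size, while moving the median of all genes from 0.04 to 0.62, so that the distance of Csf1 from that median was -1.34 as deposited and -1.41 rescaled. A pseudocount of 5 gave -0.83.

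The Csf1 gene lies on chromosome 3 of GRCm38 (mm10) at chr3:107741048-107760469. The 250 bases before its RefSeq start, chr3:107760470-107760719 on the minus strand, are shown. Csf1 was chosen because ND1 cells of day 7 kept a larger share of its day 7 control level than of the receptor levels. The capitals mark the only match on either strand to the consensus NF-kappaB site, which lies on the opposite strand and begins 154 bases before the start.

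Csf1: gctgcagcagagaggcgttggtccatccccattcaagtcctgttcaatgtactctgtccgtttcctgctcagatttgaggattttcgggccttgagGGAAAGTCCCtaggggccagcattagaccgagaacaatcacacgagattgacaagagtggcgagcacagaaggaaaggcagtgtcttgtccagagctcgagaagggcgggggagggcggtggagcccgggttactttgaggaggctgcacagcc

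A match to that consensus occurs in 2382 of the 32851 RefSeq promoters of the same length, or 7.25%, searched on both strands. The stretch has a G and C content of 56.4% and 10 CpG dinucleotides, against medians of 52.4% and 6 over those promoters, and holds no match to GAGGAA, a core that the myeloid factor PU.1 can bind. A match to letters is a description and not a measured binding site.

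Il34, the second ligand of the Csf1r receptor, was the only one of the 6 genes with a higher level in ND1 cells at day 7 than in control cells, at a very low level in all groups. It was listed at 0.0209, 0 and 0 FPKM in control microglia at day 2 and at 0.0809, 0.125 and 0.0979 FPKM in control microglia at day 7. ND1 cells had 0.0798, 0.128 and 0.101 FPKM at day 2 and 0.810, 0.90 and 0.865 FPKM at day 7. The 3 ND1 libraries of day 7 lay above every control and ND1 day 2 library and overlapped the cortical neurons, which had 0.562, 0.820 and 0.839 FPKM.

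The values of Il34, Csf2 and Csf3, the 3 genes checked, were whole multiples of a step in each library, within a tolerance of 0.1, so the Il34 values can be read as fragments if the smallest step is a single fragment. On that reading the group sums were 1 fragment in control microglia at day 2 (exact 95% Poisson interval 0.0253 to 5.57), 15 in control microglia at day 7 (8.40 to 24.7), 15 in ND1 cells at day 2 (8.40 to 24.7), 162 in ND1 cells at day 7 (138 to 189) and 136 in neurons (114 to 161). These intervals cover counting error only, and the sums are not adjusted for the unequal depth of the libraries. In FPKM, a fragment was worth 0.728 to 1.13 times its worth in control replicate 1 of day 2. The mean of the day 7 ND1 libraries was 8.47-fold that of the day 7 controls. Fitted without the filter on low values, the difference on the log2(FPKM + 1) scale was 0.75 (SE 0.05, limma adjusted p 1.16e-08), under the size needed for a call. After rescaling each library to a sum of 1000000 the day 7 difference was 1.34, with no test at this filter, while the median of all genes moved to 0.62. Il34 stood 0.71 above that median as deposited, 0.72 above it rescaled and 0.47 above it after quantile normalization. At levels this low the added 1 weighs heavily on the log2(FPKM + 1) scale, so these distances do not show that the difference is free of scaling. The gene spans chr8:110741829-110805949 and overlaps 3 other annotated genes (Gm15894, Gm39250 and Gm15895). The counting is not stated to use strand, so reads of genes that overlap could not be separated.

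Neuronal markers moved in the same direction as Il34. The summed level of 12 neuronal marker genes was 19.5 to 25.2 FPKM in control microglia at day 7, 3620 to 3647 FPKM in ND1 cells at day 7 and 2830 to 3003 FPKM in cortical neurons. At day 2 it was 588 to 729 FPKM in ND1 cells and 25.3 to 29.1 FPKM in controls. Markers of fibroblasts and mural cells, 10 genes, summed to 55.1 to 68.5 FPKM in control microglia at day 7 and to 56.9 to 61.6 FPKM in ND1 cells at day 7. These like sums held unlike members: of 8 tested, Pdgfrb, Rgs5, Col1a1 and Col3a1 were called higher in ND1 cells and Tagln lower. The part of these cells in the Il34 level was not tested.

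Csf1r, the receptor of both ligands, was the most abundant of the 6 genes in control microglia. On the log2(FPKM + 1) scale it had the largest fall of the 5 tested genes at day 7. In mean FPKM the day 7 falls of Csf1r and Csf3r were alike, 22.7-fold and 22.0-fold. Csf1r stood at 149, 152 and 147 FPKM in control microglia at day 2. In those of day 7 it stood at 362, 360 and 362 FPKM, so it was 2.42-fold higher in the later controls. ND1 cells had 110, 122.9 and 125 FPKM at day 2 and 18.8, 13.7 and 15.3 FPKM at day 7. Cortical neurons had 0.390, 0.343 and 0.468 FPKM. None of the 5 groups overlapped its neighbour in level, and ND1 cells at day 7 had 39.8-fold the mean of the neurons.

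The difference between ND1 and control cells in Csf1r was a log2 fold change of -0.32 at day 2 (SE 0.083, limma adjusted p 0.00349), a 1.25-fold lower mean that was under the size for a call. At day 7 it was -4.43 (SE 0.083, limma adjusted p 1.98e-15), a 22.7-fold lower mean. Because the control level rose between the days, the day 7 ND1 mean was 0.107 times the day 2 control mean and 0.0441 times the day 7 control mean. The homeostatic microglial markers, a list of 8 genes, also had a larger sum in the later controls, 1547 to 1706 FPKM at day 7 against 710 to 735 FPKM at day 2, with 2 of the 8 under 1 FPKM at day 7 and 3 at day 2. Astrocyte markers, 9 genes, summed to 19.4 to 21.1 FPKM in the control libraries of day 2 and 71.5 to 76.5 FPKM in those of day 7. The fibroblast and mural markers summed to 2.77 to 4.50 FPKM at day 2 and 55.1 to 68.5 FPKM at day 7. Their part in the change of the control cultures was not tested.

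Csf2ra, the alpha chain of the granulocyte-macrophage receptor, followed the opposite course to Csf1r in the controls. It was 119, 114 and 114 FPKM in control microglia at day 2 and 55.4, 62.7 and 52.6 FPKM at day 7. In ND1 cells it was 79.3, 85.0 and 87.4 FPKM at day 2 and 7.47, 5.92 and 6.98 FPKM at day 7. Cortical neurons had 4.93, 6.12 and 5.31 FPKM, which overlapped the ND1 libraries of day 7. Csf2ra was thus the receptor gene with the highest level in the neuron cultures, where the 12 myeloid markers together summed to no more than 40.8 FPKM. The log2 fold change between ND1 and control cells was -0.46 at day 2 (SE 0.084, limma adjusted p 0.000286) and -2.90 at day 7 (SE 0.084, limma adjusted p 1.78e-13).

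Csf2rb, the shared beta chain, was 42.4, 43.7 and 42.7 FPKM in control microglia at day 2 and 30.8, 34.5 and 30.4 FPKM at day 7. ND1 cells had 35.1, 36.9 and 37.2 FPKM at day 2 and 2.59, 1.66 and 1.97 FPKM at day 7, and the neurons had 0.0433, 0.0209 and 0.0118 FPKM. The ND1 libraries lay below the controls of the same day without overlap, by a log2 fold change of -0.23 at day 2 (SE 0.084, limma adjusted p 0.0248) and -3.43 at day 7 (SE 0.084, limma adjusted p 2.71e-14). Unlike its alpha chain, Csf2rb was close to 0 in neurons. It has a closely similar neighbour on chromosome 15, Csf2rb2, the beta chain specific to interleukin-3, and how reads shared by both were assigned is not stated, so the level of each is uncertain. Csf2rb2 stood at a mean of 34.5 FPKM (SD 0.995, n = 3) in control microglia at day 2, 27 FPKM (SD 1.81, n = 3) at day 7, 22.6 FPKM (SD 0.849, n = 3) in ND1 cells at day 2 and 1.96 FPKM (SD 0.268, n = 3) at day 7.

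Csf3r, the granulocyte colony-stimulating factor receptor best known from neutrophils, had the largest fall of the 5 tested genes at day 2. It was 21.5, 21.4 and 21.8 FPKM in control microglia at day 2 and 10.0, 11.1 and 11.2 FPKM in ND1 cells, a 2.01-fold lower mean with no overlap. On the log2(FPKM + 1) scale this was -0.94 (SE 0.05, limma adjusted p 1.31e-09), short of the size for a call. At day 7 it was 13.0, 13.8 and 12.6 FPKM in controls and 0.673, 0.585 and 0.535 FPKM in ND1 cells, a log2 fold change of -3.15 (SE 0.05, limma adjusted p 5.85e-16). Neurons had 0.0584, 0.0211 and 0.0636 FPKM.

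Neutrophil markers were also measured beside Csf3r, and their part in its level was not tested. Of 11 neutrophil marker genes, 10 were listed, with a sum of 17.2 to 18.1 FPKM in control microglia at day 2 and 1.29 to 2.66 FPKM at day 7. Most of the day 2 sum was Mmp8, a collagenase, at 13.3 to 13.8 FPKM, and S100a8, a calcium-binding protein, at 3.25 to 3.85 FPKM, while S100a9, Mpo and Retnlg were at 0. In the control libraries of day 7 Ngp, Mpo and Retnlg were at 0, and Csf3r was still at 12.6 FPKM or more. Markers of dendritic cells and of macrophages grown in granulocyte-macrophage colony-stimulating factor, 11 genes, summed to 47.2 to 50.6 FPKM in control microglia at day 2 and 31.6 to 41.6 FPKM at day 7, with Cd209a at 0 in both. Most of these sums was Cd74, at 36.2 to 38.8 FPKM at day 2 and 25.6 to 35.35 FPKM at day 7. Of the 11 genes, 8 had means under 1 FPKM at day 2 and 9 at day 7. Markers of oligodendrocytes, endothelium, and lymphocytes with mast cells summed to at most 24.2, 19.9 and 19.5 FPKM in any library.

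The core GAGGAA, which the Csf1 stretch lacked, occurred near the start of Csf2ra and Csf3r. The RefSeq table used holds promoters of Csf1, Csf2ra and Csf3r among the 6 genes. In Csf2ra a pair of adjacent copies begins 14 and 8 bases before the start, within chr19:61228419-61228448 on the minus strand, and in Csf3r a single copy begins 86 bases before the start, within chr4:126024561-126024590 on the plus strand. Both RefSeq starts lie inside the annotated span of their gene, so the Csf2ra copies fall within the span ending at chr19:61228461 and the Csf3r copy within the span that begins at chr4:126023441. The 30 bases around them are shown with the copies in capitals, to set beside the Csf1 stretch.

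Csf2ra: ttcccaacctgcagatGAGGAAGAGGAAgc

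Csf3r: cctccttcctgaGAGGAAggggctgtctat

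GAGGAA was found on either strand in 23.3% of the 32851 promoters of that length, so a match in any one promoter is common. How often a pair of promoters would both hold a match was not tested. The Csf3r promoter also held a match to the NF-kappaB consensus, 129 bases before the start, and the Csf2ra promoter held none.

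Read together, none of the 5 tested genes was called at day 2, when 9.71% of all tested genes were called in ND1 against control cells. At day 7 each of the 5 was called lower, when 24.5% of all tested genes were, and their median log2 fold change was -3.15 against 0.04 over all tested genes. These 5 entered the test through the groups in which they are high, so this count is a description. The change between days in the ND1 effect, tested as an interaction, was called lower in each of the 5, with 20.8% of all tested genes called lower, and ranged from -1.23 for Csf1 to -4.11 for Csf1r. Within the ND1 cells the 5 genes were lower at day 7 than at day 2, when 21.1% of all tested genes were called lower. The log2 fold changes of FPKM + 1 were -2.18 for Csf1, -2.84 for Csf1r, -2.88 for Csf3r, -3.45 for Csf2ra and -3.62 for Csf2rb. This scale understates the fall of low genes. In mean FPKM the falls were 5.49-fold for Csf1, 7.49-fold for Csf1r, 12.4-fold for Csf2ra, 17.6-fold for Csf2rb and 18.0-fold for Csf3r.

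**Figure D2:**
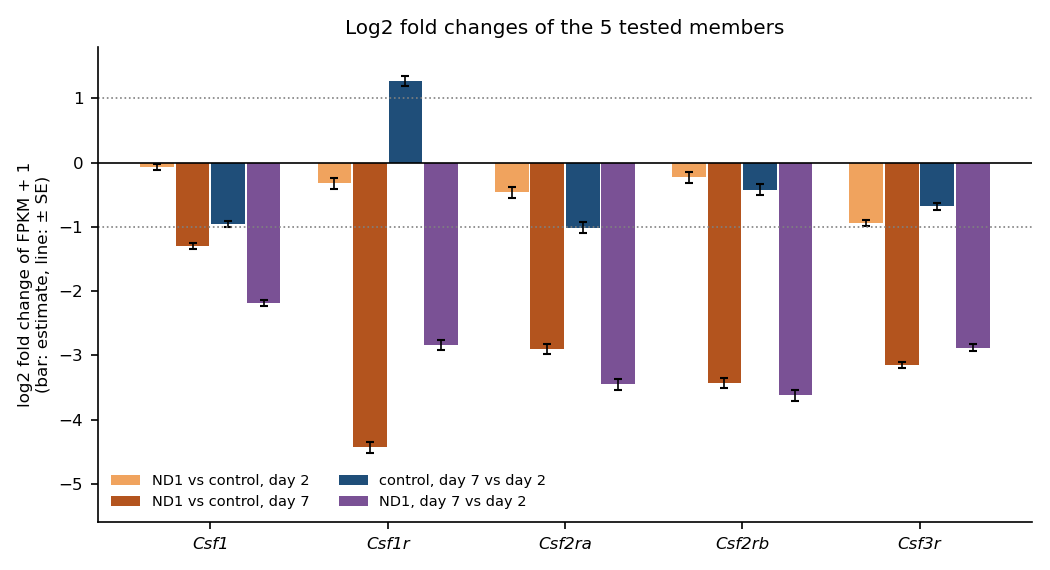
Log2 fold change of FPKM + 1 for the 5 tested genes in 4 comparisons (bars, fitted estimate over 3 libraries a group; lines, SE; dotted lines, the size of 1 needed for a call). Csf1r is the only gene with a bar above 0, its rise of 1.27 in control cells between the days, and Csf1 has the smallest fall at day 7, -1.30.

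In the control cultures alone, Csf1r was called higher at day 7 than at day 2 and Csf2ra lower, 2 of the 5 tested genes, when 7.7% of all tested genes were called in either direction. The log2 fold changes were 1.27 for Csf1r (SE 0.083, limma adjusted p 1.47e-08) and -1.01 for Csf2ra (SE 0.084, limma adjusted p 1.57e-07). The Csf2ra call sat at the threshold of size: leaving out control replicate 1 of day 2 gave -0.99, and leaving out replicate 1 or replicate 3 of day 7 gave -1.0 and -0.96, none of them a call. Csf1 had -0.95, Csf3r -0.68 and Csf2rb -0.42, so the ligand and the other receptors differed in the opposite direction to Csf1r. The Csf1 value passed the size threshold after rescaling, at -1.02.

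Against cortical neurons, each of the 5 tested genes was called higher in control microglia at day 7, when 25.3% of all tested genes were lower in neurons. The fold in mean FPKM was 11.6 for Csf1, 10.4 for Csf2ra, 275 for Csf3r, 903 for Csf1r and 1262 for Csf2rb, whose level was under 0.05 FPKM in each neuron library. In ND1 cells at day 7, Csf1 (log2 fold change 1.28), Csf1r (3.59) and Csf2rb (1.57) were called higher than in neurons, 3 of 5 when 7.29% of all tested genes were called higher. Csf2ra differed by 0.27 (SE 0.084, limma adjusted p 0.0101) and Csf3r by 0.61 (SE 0.05, limma adjusted p 8.88e-08), both under the size for a call. For Csf3r this rested on the pseudocount, since with 0.1 in place of 1 the difference was 2.25, and rescaling gave 1.07.

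The share of the day 7 control level left in ND1 cells of day 7 set Csf1 apart from the receptors. The genes to compare with were the 1148 tested genes with at least 10 FPKM in control microglia at day 7 and no more than 10% of that level in neurons, among which are the 5 tested members. At day 7 these genes kept a median of 6.95% of the control mean (quartiles 5.13% and 10.3%). Csf1 kept 37.9%, 32.9% and 34.1% in the 3 ND1 libraries, a mean of 35% (SD 2.62, n = 3), and 8 of the 1148 genes, Csf1 among them, were at this share or above. Csf1 met the limits of this set narrowly, with 10.35 FPKM in the day 7 controls and neurons at 0.0864 times that level. The contrast also rests on the day 7 controls. Set against the day 2 control mean, the day 7 ND1 mean was 0.173 times for Csf1 and 0.107 times for Csf1r. It was 0.0587 times for Csf2ra, 0.0482 for Csf2rb and 0.0277 for Csf3r.

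Among the receptor genes, Csf2rb lay between the quartiles of the day 7 shares of the 1148 genes, 5.13% and 10.3%. Csf1r and Csf3r lay below the lower quartile and Csf2ra above the upper one. Csf1r kept 4.41% (SD 0.719, n = 3), Csf3r 4.55% (SD 0.530, n = 3), Csf2rb 6.49% (SD 1.5, n = 3) and Csf2ra 11.9% (SD 1.40, n = 3). With the mean level of the neurons subtracted from both groups, Csf1 kept 28.8%, at or above which were 9 of the 1148 genes, and Csf2ra kept 2.60%, while the median of the 1148 genes was 5.09%. Subtracting the neuron mean from both groups lowers the share of any gene that was lower in ND1 cells than in controls. The lower share of Csf2ra after it is therefore arithmetic and no test of where its RNA came from. Csf2ra stood above 82.1% of the 1148 genes before the subtraction and above 9.41% after it. At day 2 the shares were 95% for Csf1, 84.8% for Csf2rb, 79.8% for Csf1r, 72.5% for Csf2ra and 49.9% for Csf3r, against a median of 73.2% (quartiles 65.0% and 84.7%) over 1141 of the genes. Astrocyte markers, which belong to a known source of Csf1, summed to 36.5 to 37.2 FPKM in ND1 cells at day 7 and 71.5 to 76.5 FPKM in the controls. Of the 7 that were tested, Gfap, Aqp4 and Aldh1l1 were called lower, and Slc1a3 (0.43), Slc1a2 (0.58), Sox9 (0.24) and Aldoc (0.18) had positive log2 fold changes under the size for a call, with a median of 0.18 over the 7. Their part in the Csf1 level was not tested.

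**Figure D3:**
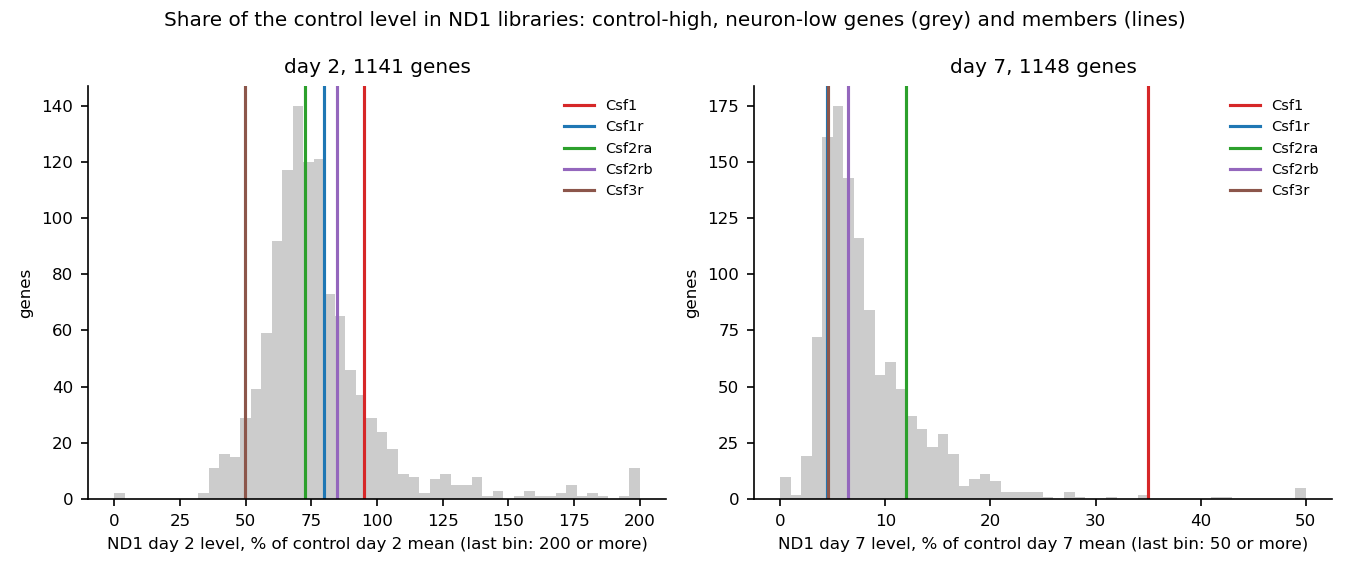
Histograms of the ND1 level as a percentage of the control mean of the same day, for genes that were high in day 7 controls and low in neurons (grey, number of genes per bin; the last bin collects larger values), with a line for each of the 5 tested genes. At day 7 the Csf1 line at 35% stands to the right of the bulk of the genes, whose median is 6.95%, and at day 2 the Csf3r line at 49.9% is the lowest of the 5.

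Ratios taken within a library do not depend on its scale, and over time the log2 ratio of Csf1 to Csf1r differed by -2.29 in the controls (day 7 minus day 2) and by 0.46 in ND1 cells. The ratio of Csf1 to Csf1r was 0.145, 0.134 and 0.140 in control microglia at day 2 and 0.0285, 0.0290 and 0.0284 at day 7. In ND1 cells it was 0.180, 0.160 and 0.160 at day 2 and 0.209, 0.248 and 0.231 at day 7. Between the ND1 and control cells of day 7 the log2 ratio differed by 3.00, and between those of day 2 by 0.25, without overlap in either case. In neurons the ratio had a mean of 2.25, from very low levels of both genes.

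The chains of the granulocyte-macrophage receptor differed by -0.90 in the log2 ratio of Csf2rb to Csf2ra between ND1 and control cells at day 7, and by 0.23 at day 2. Within ND1 cells that ratio differed by -0.53 between the days. The log2 ratio of Csf2rb to Csf2ra averaged -1.43 (SD 0.057, n = 3) in control microglia at day 2, -0.83 (SD 0.037, n = 3) at day 7, -1.20 (SD 0.029, n = 3) in ND1 cells at day 2 and -1.73 (SD 0.176, n = 3) at day 7. The log2 ratio of Csf3r to Csf1r was the same within the spread in ND1 cells and controls at day 7, -4.73 (SD 0.155, n = 3) against -4.78 (SD 0.070, n = 3), with an exact two-sided permutation p of 0.70. At day 2 it was -3.47 in ND1 cells and -2.79 in controls. In all, 20 such ratio comparisons were made. With 3 libraries against 3 the exact permutation test cannot go below 0.10, and each of the other 19 reached that value (Benjamini-Hochberg adjusted 0.11), so none passed 0.05.

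**Figure D4:**
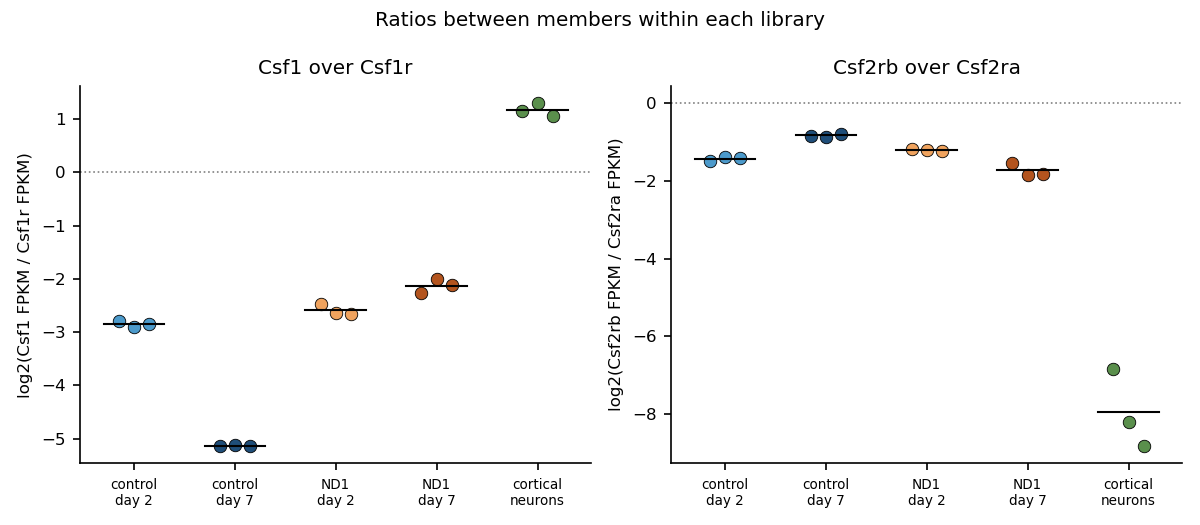
Log2 ratio of Csf1 to Csf1r (left) and of Csf2rb to Csf2ra (right) in each of the 15 libraries (points) with the mean of each group (lines); the dotted line marks equal FPKM. The control libraries of day 7 form the lowest group for Csf1 over Csf1r at a mean of -5.13, and the neurons the lowest for Csf2rb over Csf2ra at -7.95.

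The other colony-stimulating factor genes and close relatives were given as a list of 15, of which 8 passed the filter on low values. Over all tested genes, 25.7% were called higher and 24.5% lower in ND1 against control cells at day 7, and 9.09% higher and 0.618% lower at day 2, and the counts of the lists that follow are to be read beside these. The ligand genes Csf2 and Csf3 had 0 to 4 fragments in any library by the reading used for Il34, with 0 fragments of Csf2 in all control libraries of day 7, so differences in the ligands of the Csf2ra and Csf3r receptors were not detectable at this depth. In ND1 against control cells at day 7, 4 of the 8 were called higher and 3 lower, with a median of 0.63. Higher were Ptprz1, a receptor-type phosphatase that binds interleukin-34 (log2 fold change 3.25), Kit, the stem cell factor receptor related to Csf1r (2.74), and Sdc1, a proteoglycan that binds interleukin-34 (1.96). Lower were Csf2rb2 (-3.25), Il3ra, the alpha chain of the interleukin-3 receptor (-2.93), and Flt3l, the ligand of the related receptor Flt3 (-2.20).

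Ptprz1 and Sdc1, like Il34, were higher in ND1 cells at day 7 and in neurons than in the controls. Ptprz1 was 0.984, 1.43 and 1.49 FPKM in control microglia at day 7, 20.3, 21.1 and 21.1 FPKM in ND1 cells at day 7, and 9.29, 9.53 and 8.09 FPKM in neurons. It was the only gene of this list called at day 2 (log2 fold change 1.49), while rescaling called 3 of them. Sdc1 had a mean of 1.36 FPKM (SD 0.150, n = 3) in control microglia at day 7, 8.14 FPKM (SD 0.201, n = 3) in ND1 cells at day 7 and 4.65 FPKM (SD 0.446, n = 3) in neurons.

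Of 33 genes that act downstream of Csf1r or together with it in myeloid signalling, 22 were called lower and 1 higher at day 7, with a median of -2.47. Among the largest falls were those of Ptpn6, a phosphatase that restrains myeloid receptors (-4.50), and Trem2, a lipid receptor of microglia (-4.32). The gene called higher was Fyn, a Src family kinase also used by neurons (2.56). After rescaling, 6 of the 33 were called higher. At day 2 none was lower and 2 were higher, Cd33, an inhibitory sialic acid receptor of myeloid cells (1.74), and Fyn (1.23). The mean of Cd33 was 7.61 FPKM (SD 0.458, n = 3) in control microglia at day 2, 27.7 FPKM (SD 1.04, n = 3) in ND1 cells at day 2 and 2.46 FPKM (SD 0.478, n = 3) in ND1 cells at day 7. This course was not particular to Cd33: the homeostatic marker Olfml3 had means of 8.61, 24.4 and 3.46 FPKM in the same groups.

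The JAK-STAT genes, through which the Csf2 and Csf3 receptors signal, were listed for 18 of 19 genes. At day 7, 11 were called lower and 2 higher, with a median of -1.67. Stat6, a transcription factor of cytokine signalling, had -3.95, and Jak3, a cytokine receptor kinase, had -2.85. The genes called higher were the feedback inhibitors Socs2 (2.65) and Cish (2.05), which were also higher in neurons than in control microglia in mean level, at 12.7 FPKM (SD 0.700, n = 3) against 1.68 FPKM (SD 0.330, n = 3) for Socs2 and 10.7 FPKM (SD 1.26, n = 3) against 0.791 FPKM (SD 0.320, n = 3) for Cish. At day 2, Socs2 was the only gene of the list called (1.11), and none was called higher with a pseudocount of 5 or after quantile normalization. At day 7 a pseudocount of 5 left 1 gene called higher.

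Regulators of Csf1r transcription were given as 17 genes. At day 7, 12 were called lower and none higher, with a median of -3.03. Irf8, Spi1, which encodes PU.1, and Cebpa, transcription factors of the myeloid lineage, had log2 fold changes of -4.25, -4.14 and -3.91. Spi1 at day 2 was 375, 357 and 374 FPKM in controls and 275, 295 and 301 FPKM in ND1 cells, a difference under the size for a call. Of 5 genes that release ligands and receptors from the cell surface, Rhbdf2 (-2.97) and Adam17 (-2.90), an adaptor and the protease it carries, were called lower at day 7, and none was called at day 2. All 12 myeloid markers were called lower at day 7, and the part of a smaller myeloid share of the RNA in these list counts was not tested.

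The genes whose levels were most like each member over the 15 libraries were found by Pearson's r of log2(FPKM + 1) among 10942 genes with a group mean of at least 5 FPKM. They are given as a description, since the 15 libraries fall into 5 groups that set most of r. Nearest to Csf1 were Rsad2, an antiviral protein induced by interferon (r = 0.999), Ccl5, a chemokine (0.999), and Gbp3, a guanylate-binding protein induced by interferon (0.996). Although alike in their course, these fell further than Csf1 did: Rsad2 had means of 913, 182, 850, 13.2 and 0.314 FPKM in control day 2, control day 7, ND1 day 2, ND1 day 7 and neurons. Nearest to Csf1r were Gngt2, a G protein subunit, Lcp1, the actin-bundling protein of leukocytes, and Gusb, a lysosomal glucuronidase, each with 0.999. Gngt2 shared the rise in controls, from a mean of 98.4 FPKM at day 2 to 245 FPKM at day 7.

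Nearest to Csf2ra were Rbm15, Slc16a3 and Plekhm2 (each 0.999), of which Plekhm2 kept 8.93 FPKM in neurons, as Csf2ra kept 5.45 FPKM. Nearest to Csf2rb were Aldh3b1 (1.00), Tlr9, a receptor for unmethylated DNA (0.999), and Dtx3l (0.999). Nearest to Csf3r were Nod1, a sensor of bacterial wall fragments (0.999), Xdh, xanthine dehydrogenase (0.998), and B430306N03Rik (0.998). Nod1 shared the early fall of Csf3r, with a mean of 19.6 FPKM in controls and 11.0 FPKM in ND1 cells at day 2. Ranking by Spearman's rho named 3 other genes for each of the 5 members.

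DNA methylation at the genes was compared between the control and the ND1 bisulfite library, 1 of each, so there is no replicate check and no test, and the deposited fractions carry no read depth. Over the genome the mean methylation was 70.2% over 15809560 CpG positions in the control library and 70.3% over 16265647 in the ND1 library. Within 1000 bases of the Csf1 start, 76 shared CpG positions had a mean of 9.03% in the control and 8.98% in the ND1 library. At Csf1r (chr18:61105572-61131139), whose strand is not in the table used, the first 1 kb bins inside the lower-coordinate end had means of 6.57%, 5.90%, 8.10% and 9.94% in the control library. The ND1 library had 6.77%, 2.87%, 5.85% and 11.5% in the same bins. The next bin stood at 56.6% in the control and 58.8% in the ND1 library, so the low stretch ended at the same bin in both.

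At the other genes the libraries differed by a few percentage points in the windows given here. Within 1000 bases of the Csf2ra start (the gene spans chr19:61217191-61228461) the means were 28.1% (SD 33.7 over 78 positions) and 27.7% (SD 34.3). Within 1000 bases of the Csf3r start (chr4:126023441-126044975) they were 41.4% (SD 36.7 over 36 positions) in the control and 44.9% (SD 35.3) in the ND1 library, and within 500 bases 9.70% (SD 9.72 over 17 positions) and 15% (SD 13.2). In the promoter window of Csf3r (chr4:126024409-126024708) 9 positions had 4.37% (SD 6.15) and 11.2% (SD 10.1). The difference of 6.79 points was above the SD over positions in the control and below that in the ND1 library. These SDs do not measure the spread between libraries. Larger differences occurred in 1 kb bins of few positions, such as 10.9 and -10.3 points within Csf2rb. Around the lower-coordinate end of Csf2rb (chr15:78325800-78351001) 14 positions had 11.2% (SD 10.1) in the control and 6.65% (SD 8.93) in the ND1 library, and around its higher-coordinate end 13 positions had 77.4% (SD 16.5) and 84.7% (SD 15.3). Over the whole span of Il34, 731 positions had 73.8% (SD 22.5) and 74.2% (SD 22.0), and around its higher-coordinate end 21 positions had 55.2% (SD 27.8) and 57.7% (SD 24.7).

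**Figure D5:**
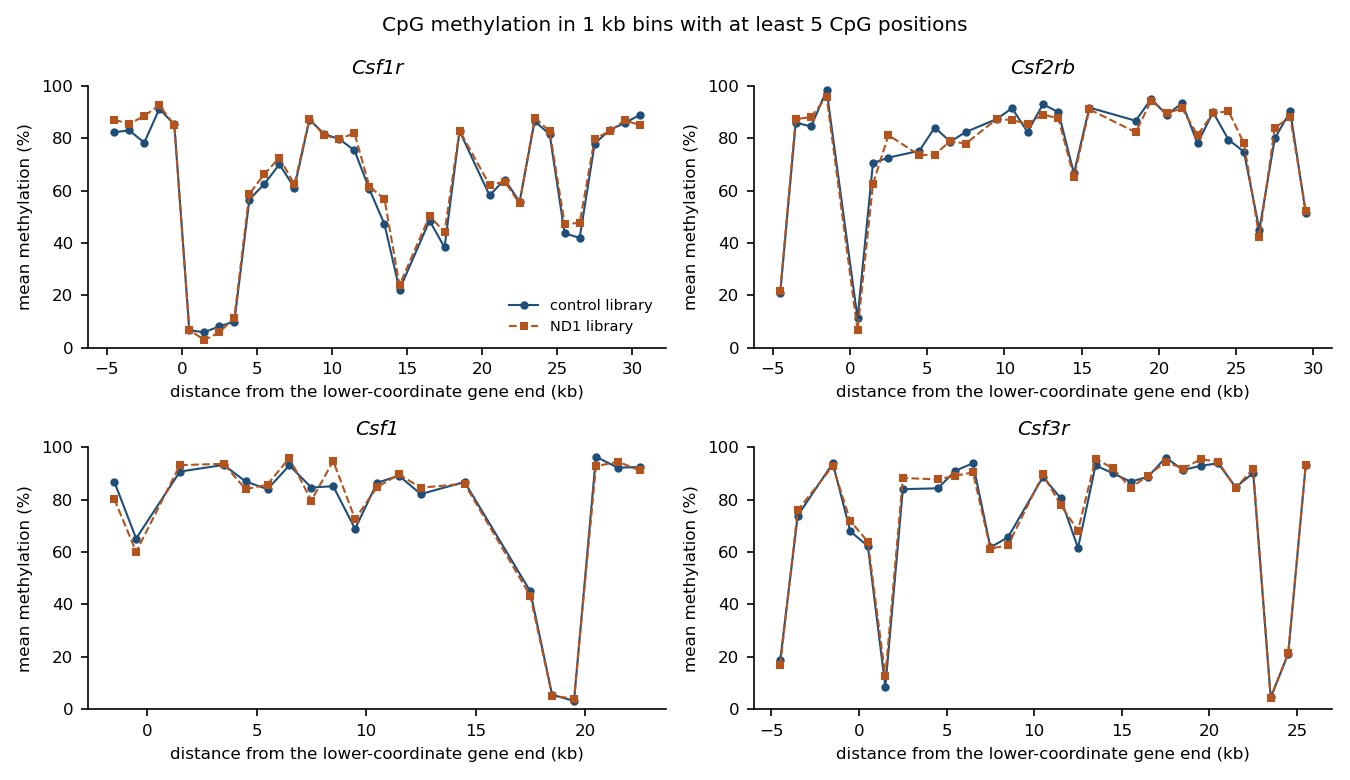
Mean CpG methylation (%) in 1 kb bins with at least 5 positions, by distance in kb from the lower-coordinate end of Csf1r, Csf2rb, Csf1 and Csf3r, in the control library (circles) and the ND1 library (squares). The low stretch of Csf1r, 5.90% to 9.94% in the control, lies in the same 4 bins in the ND1 library at 2.87% to 11.5%.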

How the data were processed

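RNA levels are FPKM per gene symbol as deposited by the authors, 1 table for each of 15 libraries; the submitters' processing notes name TopHat, Bowtie2, Cufflinks and Cuffdiff with build mm10. Methylation values are fractions per CpG position as deposited by the authors, printed here as percent; positions were read as 1-based. The aligner of the bisulfite reads was not given in the sources used here, and the 10 ChIP-seq samples were not analysed here.

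From the FPKM values, log2(FPKM + 1) was fitted with limma 3.58.1 in R 4.3.3 (5 group means, 10 residual degrees of freedom, intensity trend, no replicate block) over the 13602 of 24293 symbols that reached 1 FPKM in 3 or more libraries, with Benjamini-Hochberg adjustment over those genes in each comparison. The fit was tested on simulated data. Fold changes understate changes of low genes. The 6 genes, the gene lists and the tests were chosen with earlier results of these data known. The genes named from each list are up to 3 called genes with the largest change in each direction at each day; for likeness, the 3 with the highest r. Some genes that this rule names are not reported here. Promoters and gene positions are from RefSeq, GRCm38.p6 (mm10); 23041 symbols matched by symbol and 1121 by synonym. Alternatives tried were other pseudocounts, filters, scalings, fits, and leaving out each library.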

Additional observations from a re-analysis of the deposited data

Results flagged for a closer look

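The ND1 effect differed between day 2 and day 7, by limma's interaction term, in each of the 5 genes that could be tested. The difference of the log2 fold changes (day 7 minus day 2) was -1.23 for Csf1 (SE 0.064, limma adjusted p 3.62e-10), -4.11 for Csf1r (SE 0.117, adjusted p 1.24e-12), -2.44 for Csf2ra (SE 0.119, adjusted p 1.77e-10), -3.20 for Csf2rb (SE 0.119, adjusted p 1.10e-11) and -2.20 for Csf3r (SE 0.071, adjusted p 2.98e-12). For Csf1r, part of the arithmetic is the control level, which was 2.42-fold higher at day 7 than at day 2, whereas the control levels of the other 4 genes were lower at day 7. The summed level of the 12 myeloid markers in ND1 cells was 15100 to 16500 FPKM at day 2 and 1024 to 1436 FPKM at day 7, and its part in these differences was not tested.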

How the results depend on the processing

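Over the 7 comparisons, the alternatives other than leaving out a library kept direction and call in 363 of 378 results of the 6 genes. A pseudocount of 0.1 moved the count of called genes from 1321 to 2524 (ND1 against control, day 2), from 1047 to 1892 (controls, day 7 against day 2) and from 1840 to 2929 (ND1 day 7 against neurons), and brought Csf1 in controls over time (-1.01) and Csf3r against neurons (2.25) past the threshold. A pseudocount of 5 gave 419, 4492 (from 6829, day 7), 3459 (from 5616, interaction), 457, 3621 (from 5942, ND1 over time) and 739 genes, and ended the calls of Csf1 at day 7 (-0.83), in the interaction (-0.77) and against neurons (0.55), of Csf3r in the interaction (-0.94), of Csf2ra in controls over time (-0.97) and of Csf2rb against neurons (0.49). Rescaling turned Csf1 at day 2 to 0.10, moved Il34 at day 7 from 0.75 to 1.34 (not tested), ended the Csf1 calls at day 7 (-0.79) and in the interaction (-0.88), and added calls for Csf1 in controls over time (-1.02) and Csf3r against neurons (1.07); it moved the median of all genes to 0.11 at day 2, 0.62 at day 7 and 0.54 in the interaction. Quantile normalization ended the Csf2ra call in controls over time (-0.93) and turned Il34 in ND1 day 7 against neurons from 0.10 to -0.04. Leaving out each library in turn kept 627 of 630 results; for Csf2ra in controls over time the lowest and highest values were -1.09 and -0.96. The causes were not tested. A window of 500 in place of 1000 bases moved the Csf3r start from 41.4% to 9.70% in the control and from 44.9% to 15% in the ND1 library. The labels do not say whether the replicate numbers pair the libraries. Of 30 same-numbered pairs, 2 had a correlation of deviations above 0.1 (range -0.226 to 0.161), and 2 of 15 libraries correlated best with their own number. Low correlations of this kind cannot exclude a shared culture or litter. With the replicate block, counts of called genes were 1319 at day 2, 6829 at day 7 and 5617 in the interaction, and no call of the 6 genes changed. Depth limits Il34, with at most 59 fragments in a library, and the neuron levels of Csf2rb and Csf3r, under 0.1 FPKM.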
